A study of Rattus norvegicus with 12 samples.

Results

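Huntingtin and 7 genes listed as its direct binding partners were examined in the ganglionic eminences of rat embryos. Binding itself was not examined. The genes were Htt, Hap1, Hip1, Hip1r, Zdhhc17, Setd2, Pacsin1 and Sh3gl3, chosen by name. A probe set counted for a gene where the platform annotation gave it that symbol and no other. By this rule 7 of the 8 genes were read, each by 1 probe set, out of 29214 probe sets and 14506 named genes on the array. Hip1, which encodes a clathrin adaptor, had no such probe set in the annotation used here, and no value is given for it.

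The eminences are the ventral forebrain swellings from which the striatum arises. Each of the 12 Affymetrix arrays held RNA from the medial and lateral eminences of 1 embryo at embryonic day 14. The 6 homozygous embryos (BACHD+/+) carried a transgene for the whole human huntingtin protein with 96 CAG repeats, and the 6 wild-type embryos came from the same breeding, with 3 dams dissected on 1 day. The homozygous embryos were not said to have lost rat Htt, and no strain, founder line, dam or sex was given per embryo. With 3 dams for 6 embryos a group, some embryos of each group shared a litter, and which ones is unknown. The 6 are thus not 6 separate litters, and p-values measure the spread between these 12 samples. The design could not separate the mutant repeat from a higher dose of huntingtin, since no group carried a normal human transgene.

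Huntingtin is a large scaffold protein needed in embryonic development and best known for the expanded glutamine tract that causes Huntington disease, in which striatal neurons are lost. HAP1 joins huntingtin to kinesin and to dynactin, which works with dynein. Kinesin and dynein are motors that carry vesicles along microtubules. HIP1 and HIP1R connect clathrin coats with actin, ZDHHC17 (also HIP14) attaches palmitate to huntingtin and to synaptic proteins, and SETD2 (also HYPB) trimethylates histone H3 along transcribed genes. PACSIN1 (syndapin) and SH3GL3 (endophilin A3) bend membranes during endocytosis and bind proline-rich stretches through SH3 domains.

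The stretches upstream of Htt and Hap1 are shown because these were the genes with the largest differences between genotypes among the 7. Each is the 250 bases before the annotated RefSeq start on the rat assembly GRCr8, written 5′ to 3′ along the gene. Htt lies on the minus strand (chr14:80219669-80219918) and Hap1 also on the minus strand (chr10:85786504-85786753). Capitals mark matches to the motifs searched on both strands.
Htt: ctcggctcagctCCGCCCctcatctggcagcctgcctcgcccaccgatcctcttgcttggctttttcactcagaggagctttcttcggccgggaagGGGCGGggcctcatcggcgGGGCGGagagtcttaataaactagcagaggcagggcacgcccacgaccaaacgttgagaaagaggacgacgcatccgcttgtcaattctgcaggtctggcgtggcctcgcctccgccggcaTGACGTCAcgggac
Hap1: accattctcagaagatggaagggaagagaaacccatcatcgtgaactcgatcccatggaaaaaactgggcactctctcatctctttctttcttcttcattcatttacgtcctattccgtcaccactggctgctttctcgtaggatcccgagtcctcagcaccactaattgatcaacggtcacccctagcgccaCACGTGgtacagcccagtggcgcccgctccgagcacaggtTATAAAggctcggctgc
Searched were 5 motifs: the cyclic AMP response element, the GC box, the TATA motif, the CCAAT box and the E-box. In Htt the cyclic AMP response element (TGACGTCA) stood at bases -14 to -7 from the start, and 1.59% of 33469 rat windows of this length held that motif. Htt also held 3 GC boxes (GGGCGG), 1 of them on the reverse strand, a motif found in 30.5% of windows. Hap1 held none of these, but had the TATA motif (TATAAA) at bases -17 to -12, as did 12.9% of windows, and the E-box (CACGTG) at bases -57 to -52, as did 5.59%. The 250 bases were 63.2% G or C in Htt and 52.0% in Hap1. Neither window held the CCAAT box, as 34.0% of windows did, so they shared none of the 5 motifs.

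**Figure D1:**
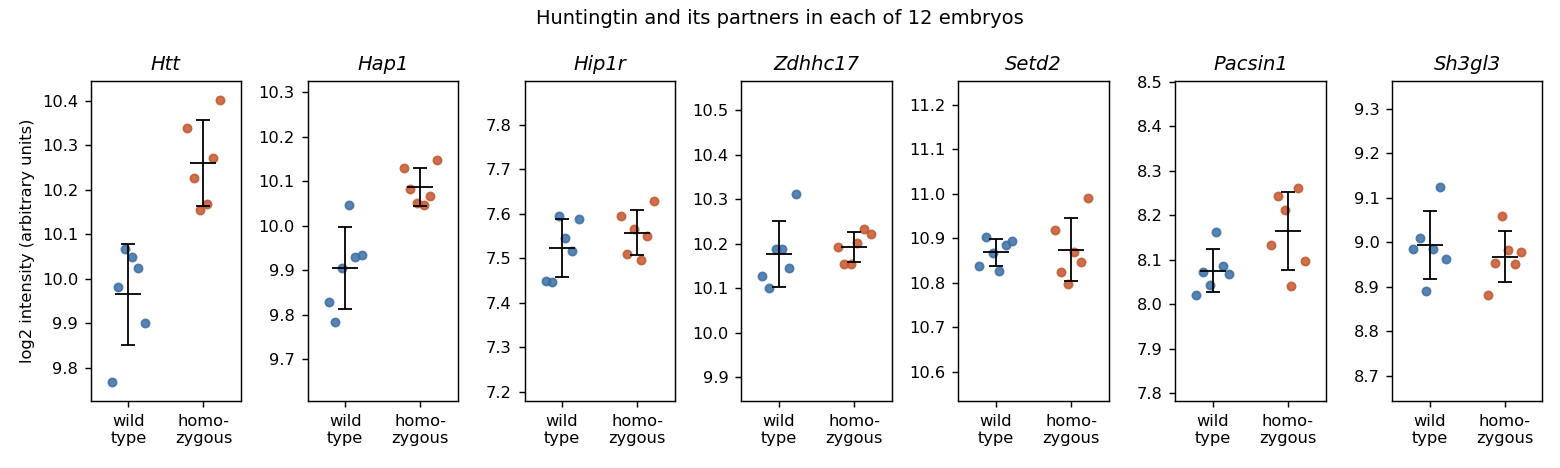
Log2 intensity (vertical axis, the same span in every panel but a different start) of 7 genes in 6 wild-type (blue) and 6 homozygous (orange) embryos, ordered by replicate number within a group, with mean and SD in black. Htt is the 1 gene whose groups do not overlap, and in Hap1 5 of 6 homozygous embryos lie above every wild type.

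Htt rose in homozygous embryos and was the 1 gene of the 7 to pass. The wild-type embryos numbered 1 to 6 read 9.77, 9.98, 10.07, 10.05, 10.02 and 9.90 on the log2 scale. The homozygous embryos numbered 1 to 6 read 10.34, 10.23, 10.16, 10.17, 10.27 and 10.40. Every homozygous embryo lay above every wild type, and wild type 1 was the lowest of all. The difference was 22.7% (95% confidence interval 13.0% to 33.3%; n = 6 per group). In limma, across all probe sets, its adjusted p was 0.0408. Of all probe sets 0.424% passed this threshold, 0.226% as higher and 0.199% as lower in homozygous embryos, and in 1.86% the groups did not overlap. The exact 2-sided permutation p over 924 assignments was 0.00216, the smallest that 6 against 6 allows. With 1 array left out, the adjusted p stayed under 0.05 only without wild type 3 (0.0339), and lay between 0.0501 and 0.0864 without any 1 of the other 11 arrays. Homozygous minus wild type then ranged from 0.26 to 0.32 (log2), so the size moved little. Whether the rat probes also bind the human transcript of the transgene was not tested, and the rise cannot be assigned to rat or human RNA.

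Array medians went along with genotype, at 7.67 to 7.71 in wild type and 7.69 to 7.76 in homozygous embryos. Centring each array on its median lowers every difference by 0.038 (log2). Htt then differed by 0.26, with an adjusted p of 0.0555 in limma that no longer passed. The median difference over all 14506 genes was 0.02 as deposited and -0.02 after centring. Of the 7 genes, 6 were above 0 as deposited and 3 after centring, beside 61.4% of all genes as deposited and 40.6% after centring. Htt, Hap1 and Pacsin1 stayed above 0 and Sh3gl3 below 0 either way, while Hip1r, Zdhhc17 and Setd2 changed sign.

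Hap1, the motor adaptor, differed next most. Its wild-type embryos numbered 1 to 6 read 9.83, 9.78, 9.90, 10.05, 9.93 and 9.93 (log2). The homozygous embryos read 10.13, 10.08, 10.05, 10.05, 10.07 and 10.15. All homozygous embryos except homozygous 4 lay above every wild type, and that 1 fell just under wild type 4. The difference was 13.5% (95% confidence interval 6.79% to 20.6%), or 0.18 ± 0.041 on the log2 scale (SE, n = 6 per group). It did not pass over all probe sets (adjusted p = 0.0702 in limma, exact permutation p = 0.00433). With 1 array left out the adjusted p ranged from 0.0575 to 0.138, and after centring it was 0.127 at a difference of 0.14. It passed in 1 setting, when probe sets without exactly 1 gene symbol were left out before adjustment (0.0473). Hap1 also varied less among homozygous embryos, with an SD of 0.0418 against 0.0922 in wild type, a contrast in spread that was not tested. Zdhhc17 did likewise (0.0335 against 0.0745), while Setd2 (0.0704 against 0.0307) and Pacsin1 (0.0881 against 0.0479) varied more.

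Of the membrane-bending partners, Pacsin1 stood highest against wild type without passing. The wild types lay between 8.02 and 8.16 (median 8.07) and the homozygous embryos between 8.04 and 8.26 (median 8.17). Homozygous 2, 3 and 5 lay above every wild type, while homozygous 4 was lower than 5 of the 6 wild types. The difference was 6.38% (95% confidence interval -0.456% to 13.7%; adjusted p = 0.363 in limma). Sh3gl3 lay between 8.89 and 9.12 (median 8.99) in the wild types and between 8.88 and 9.06 (median 8.97) in the homozygous embryos, so the groups overlapped throughout. Its difference was -1.76% (95% confidence interval -7.63% to 4.48%; adjusted p = 0.786).

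Hip1r, the clathrin and actin linker, read below the array medians and so is dim. The wild types lay between 7.45 and 7.59 (median 7.53) and the homozygous embryos between 7.49 and 7.63 (median 7.56). The difference was 2.39% (95% confidence interval -3.77% to 8.94%; adjusted p = 0.712 in limma). Zdhhc17, the palmitoyltransferase, lay between 10.10 and 10.31 (median 10.17) in the wild types and between 10.15 and 10.23 (median 10.20) in the homozygous embryos, and wild type 6 was the highest of all 12. Its difference was 1.13% (95% confidence interval -4.03% to 6.56%; adjusted p = 0.845). Setd2, the histone methyltransferase, lay between 10.83 and 10.90 (median 10.88) in the wild types and between 10.80 and 10.99 (median 10.86) in the homozygous embryos. Homozygous 6 was the highest and homozygous 3 the lowest embryo of all for Setd2. Its difference was 0.370% (95% confidence interval -4.38% to 5.36%; adjusted p = 0.949). For Hip1r, Zdhhc17, Setd2 and Sh3gl3 these intervals leave room for changes of a few percent but do not reach the lower bound for Htt.

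**Figure D2:**
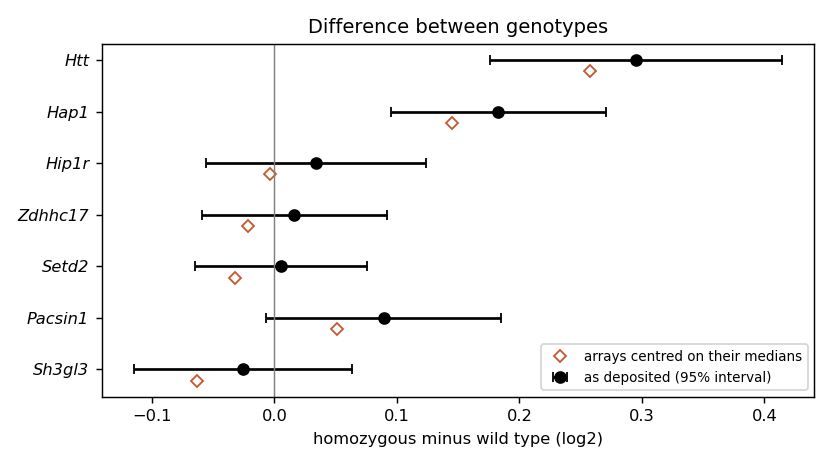
Homozygous minus wild type (horizontal axis, log2) for the 7 genes, as deposited with 95% confidence intervals (black, n = 6 per group) and with arrays centred on their medians (orange diamonds). The intervals of Htt and Hap1 lie above 0, and centring moves every gene to the left by 0.038.

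Hap1 was set against Htt within each genotype, since the groups separate in Htt. In homozygous embryos the values went along closely, with Pearson's r = 0.948 (exact permutation p = 0.00556, n = 6) and Spearman's rho = 0.886 (exact permutation p = 0.0333). Homozygous 6 and 1 were the highest in both genes and homozygous 3 and 4 the lowest in both. Homozygous 6 and 1 also had the lowest array weights of their group in limma (0.969 and 0.744). Of the related lists given below, they had the group's highest sums for paralogues (14582 and 14561), transport and cargo, and histone H3 methylation. They did not for other binding proteins, clathrin endocytosis or substrates of Zdhhc17. The part of such shared array patterns in these relations was not tested. In wild type r was 0.474 (exact permutation p = 0.340, n = 6) and rho 0.314 (exact permutation p = 0.564). These were 2 of 12 relations computed, of Htt with each of the other 6 genes in each genotype. After Benjamini-Hochberg adjustment over the 12 none passed: for Hap1 in homozygous embryos the adjusted p was 0.0667 for r and 0.350 for rho. Without the 2 embryos farthest from the median of Htt, r for Hap1 was 0.888 in homozygous and 0.702 in wild-type embryos. Over the 4 embryos left this value moved widely for other genes, from 0.00915 to 0.980 for Zdhhc17 in wild type, from 0.793 to 0.980 for Hip1r and from -0.57 to -0.95 for Sh3gl3 in homozygous embryos, so it is a weak check. Setd2 also went along with Htt in homozygous embryos (r = 0.876, exact permutation p = 0.0194, adjusted p = 0.117; rho = 0.829, exact permutation p = 0.0583, adjusted p = 0.350), but r was 0.565 without those 2 embryos. Over the 6 genes r lay between -0.57 and 0.95 in homozygous and between 0.00703 and 0.58 in wild-type embryos. Whether the relations differ between genotypes was not tested.

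**Figure D3:**
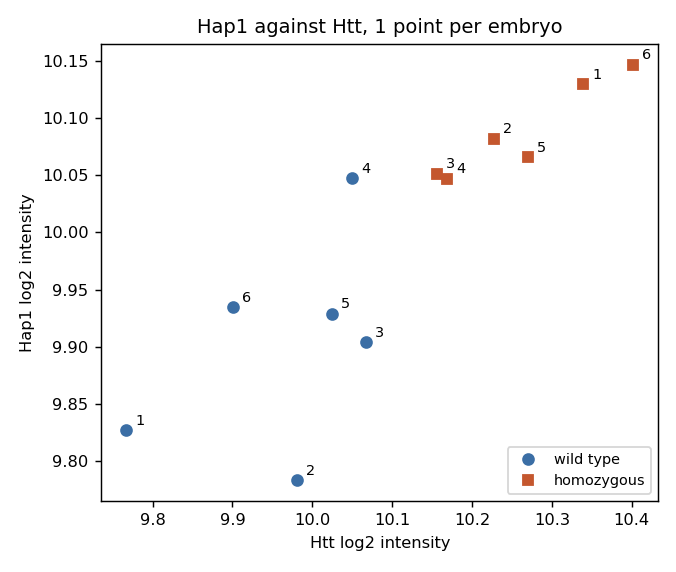
Hap1 against Htt (both axes log2 intensity), 1 point per embryo with its replicate number, wild type as blue circles and homozygous as orange squares. The homozygous points rise together from embryos 3 and 4 to embryo 6, and the wild-type points scatter below and to the left.

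The genes with the profile closest to that of Htt were found by the root mean square difference of centred log2 values over the 12 arrays. Of 14505 other genes, Syn1 for the synaptic vesicle protein synapsin was nearest (0.0800), then the adhesion receptor gene Adgrv1 (0.0906) and the ubiquitin ligase gene Marchf2 (0.0909), where the median gene lay at 0.192. Syn1 differed by 0.20 ± 0.041 (log2, SE), Adgrv1 by 0.16 ± 0.045 and Marchf2 by 0.17 ± 0.035, with adjusted p of 0.0516, 0.124 and 0.0473 in limma. The groups overlapped in Adgrv1 and in neither of the others. Nearest to Hap1 were Mapre3, which encodes a protein of growing microtubule ends (0.0376), the Golgi matrix gene Golga2 (0.0460) and Ehbp1l1 (0.0462), against a median of 0.137. Mapre3 rose by 0.20 ± 0.038 (adjusted p = 0.0408), and Golga2 and Ehbp1l1 stood at 0.16 ± 0.042 and 0.15 ± 0.058 without passing (adjusted p = 0.120 and 0.261). Genes were compared here by shape over the arrays, genotype difference included. Genes picked this way tend to differ between genotypes as Htt or Hap1 does. Their differences, p-values and separation of groups thus follow from the choice and are no separate evidence.

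The rise of Htt was next set against the genes around it on rat chromosome 14, a comparison added after the values were seen. Of the 4 nearest measured genes on each side, none passed. Msantd1, the nearest measured gene beyond the 3′ end of Htt, which encodes a protein with a Myb/SANT domain, differed by 0.20 ± 0.051 (log2, SE; adjusted p = 0.107 in limma). The wild types lay between 7.65 and 7.82 and the homozygous embryos between 7.78 and 8.03, so that 5 of 6 homozygous embryos lay above every wild type. After centring the difference was 0.16. Another 6 neighbours lay between -0.06 and 0.03: Grk4, Nop14, Add1 and Sh3bp2 on the 5′ side and Rgs12 and Hgfac on the 3′ side. Dok7, the outermost gene on the 3′ side, stood at 0.13 ± 0.061 (adjusted p = 0.350). Dok7 and Hgfac (wild-type medians 6.80 and 6.98) read below the array medians and so are dim. Which flanking genes the transgene carries is not given in the sources used here, and binding of human transcripts to the Msantd1 probes was not tested.

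**Figure D4:**
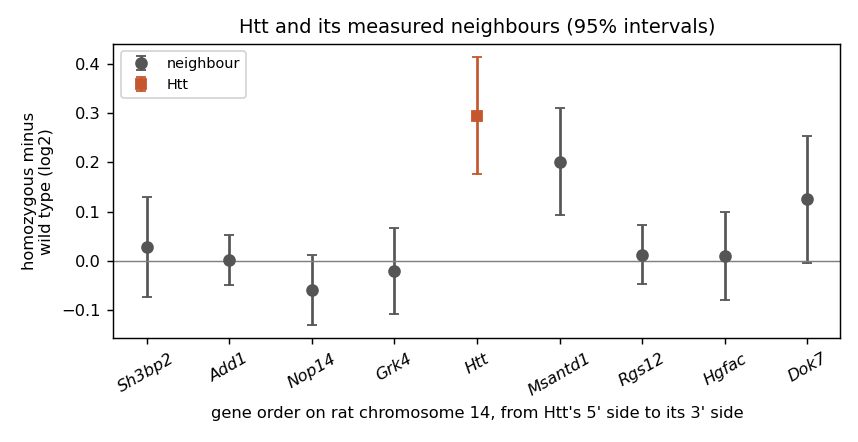
Homozygous minus wild type (vertical axis, log2, with 95% confidence intervals, n = 6 per group) for Htt (orange) and the 4 nearest measured genes on each side (grey), in gene order along rat chromosome 14. Htt and Msantd1 stand above the genes around them, at 0.30 and 0.20.

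Further genes around huntingtin were taken from 6 lists: paralogues of the partners, other proteins that bind huntingtin, clathrin endocytosis, transport of the growth factor BDNF and other HAP1 cargo, substrates of Zdhhc17, and methylation of histone H3 along transcribed genes. Together they held 104 measured genes beside the 7. None passed in limma, where 0.469% of all genes did by their brightest probe set. At an unadjusted p under 0.05 there were 19 (15 higher and 4 lower), or 18.3% beside 15.1% of all genes. The pooled share was thus close to the background. By list it ran from 7.69% (clathrin endocytosis) to 40% (paralogues). The median difference of the 104 was 0.01, beside 0.02 for all genes. Of the 104, 61 were above 0 as deposited (58.65%, beside 61.4% of all genes). After centring 33 were (31.7%, beside 40.6% of all genes), so the counts above 0 depend on the array medians.

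Among 10 paralogues, 6 were above 0 both as deposited and after centring (60%, beside 61.4% and 40.6% of all genes). Their median was 0.06 as deposited. At an unadjusted p under 0.05 in limma 4 were higher and 0 lower, or 40% beside 15.1% of all genes. Sh3gl1, the endophilin A2 gene, stood at 0.08 ± 0.028 (log2, SE) and Pacsin2 at 0.10 ± 0.032 (adjusted p = 0.191 and 0.199 in limma). In Sh3gl1 the lowest homozygous embryo (10.1116) just cleared the highest wild type (10.1112). Of 33 other binding proteins, 23 were above 0 as deposited and 12 after centring, with a median of 0.02 as deposited. The smallest p belonged to Crebbp, an acetyltransferase coactivator, at 0.10 ± 0.034, and to the kinase gene Map3k10 at 0.09 ± 0.031. Neither passed (adjusted p = 0.195 for both).

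Of 26 genes of clathrin endocytosis 14 were above 0 as deposited and 3 after centring, with a median of 0.00467 as deposited. Dnm2 for dynamin 2, which pinches off coated vesicles, stood at 0.11 ± 0.032, and the amphiphysin family gene Bin1 at -0.18 ± 0.079 (adjusted p = 0.145 and 0.296 in limma). Bin1 spread widely in wild type, from 10.14 to 10.69. Of 14 transport and cargo genes 11 were above 0 as deposited and 7 after centring, with a median of 0.05 as deposited. Smallest in p were the dynactin subunit gene Dctn2 at 0.09 ± 0.025 and the sorting receptor gene Sort1 at 0.09 ± 0.029. Dctn2 did not pass (adjusted p = 0.145), nor did Sort1 (0.182). Without wild type 1 and 2 together, the arrays with the lowest weights, Dctn2 passed at 0.11 (adjusted p = 0.0412 in limma). In that setting 582 of 29214 probe sets passed, beside 124 with all arrays.

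Of 10 substrates of Zdhhc17, 2 were above 0 both as deposited and after centring, with a median of -0.02 as deposited. Gpm6a, a neuronal membrane glycoprotein gene, stood at -0.08 ± 0.024, with 5 of 6 homozygous embryos below every wild type (adjusted p = 0.141 in limma). It passed after centring, at -0.12 (adjusted p = 0.0496 in limma), when 302 of 29214 probe sets passed, beside 124 as deposited. Golga7, which partners a palmitoyltransferase, stood at -0.14 ± 0.050 (adjusted p = 0.205). Of 11 genes of histone H3 methylation along transcribed genes and its readers, 5 were above 0 as deposited and 3 after centring. Dnmt3b, a DNA methyltransferase gene, stood at 0.14 ± 0.051 and the demethylase gene Kdm4a at 0.08 ± 0.037 (adjusted p = 0.216 and 0.352 in limma). Dnmt3b read below the array medians.

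**Figure D5:**
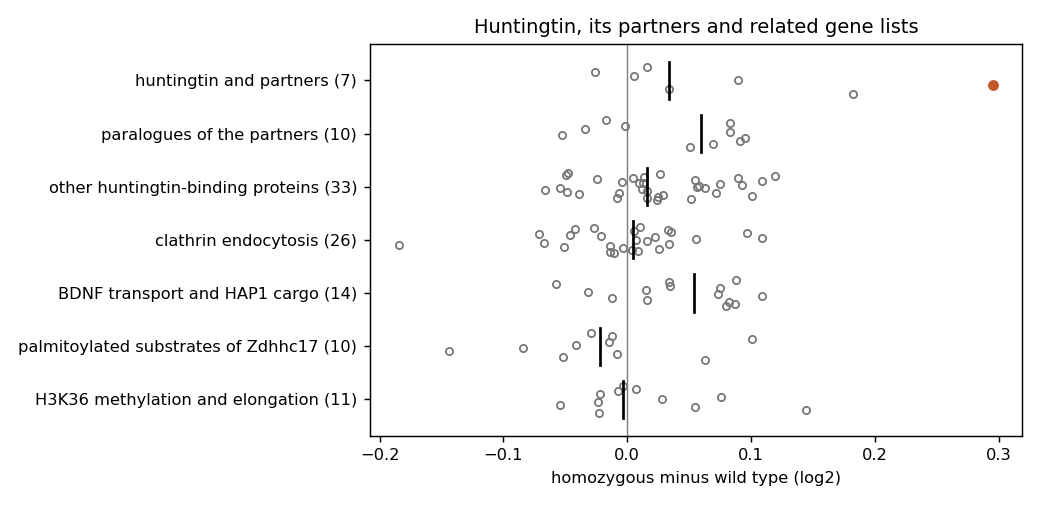
Homozygous minus wild type (horizontal axis, log2) of every measured gene in 7 lists, with the number measured in brackets, open circles for genes that did not pass, the filled orange circle for Htt, and a black bar at each list's median. Every list median lies between -0.02 and 0.06, and Htt stands apart from all other genes shown.

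Cell type markers were measured beside these values, as fewer cells of a type and less RNA per cell cannot be told apart in dissected tissue. All 10 measured markers of the eminences had a mean above the array medians, and none passed. Their summed linear intensity was 19342 to 22129 in wild type and 19895 to 21703 in homozygous embryos. The nearest to passing was Nkx2-1, listed here for the medial eminence, at 0.16 ± 0.040 (log2, SE; adjusted p = 0.108 in limma). In this gene all homozygous embryos lay above all wild types. Whether its difference comes from the eminences or from the nearby hypothalamus and preoptic area was not tested. Over the 10, 7 were above 0 as deposited and 4 after centring, with a median of 0.03 as deposited. At an unadjusted p under 0.05 there were 1 higher and 1 lower, the latter Dlx5, named after its value was seen, at -0.18 ± 0.080. That was 20% of the 10, beside 15.1% of all genes. Of 12 neuronal markers Nefl, the light neurofilament gene, fell by 0.42 ± 0.065 (adjusted p = 0.0273), and the other 11 did not reach the threshold. Of the 12, 3 were above 0 as deposited, with 1 higher and 3 lower at an unadjusted p under 0.05. The share at that p was 33.3%, beside 15.1% of all genes. These markers, of which Stmn2 also stood in the list of Zdhhc17 substrates, had sums of 47335 to 48502 and 45866 to 50309. Radial glia markers summed to 26211 to 27539 and 25903 to 27143, and none of 9 passed. Their median was 0.0019, while their median size, sign left aside, was 0.114, beside 0.0531 for all genes. At an unadjusted p under 0.05 in limma there were 1 higher (Hes5 at 0.15 ± 0.042) and 3 lower. That was 44.4% of these markers, beside 15.1% of all genes. The lowest difference was that of Fabp7, the brain lipid-binding protein gene, named after its value was seen, at -0.41 ± 0.128 (adjusted p = 0.163). Near neighbours of the eminences are the hypothalamus and preoptic area, where Hap1 is known to be abundant. Their markers had a median of 0.15 as deposited and 0.11 after centring. Both ways, 7 of 7 of these markers were above 0. None of them passed (Lhx9 at 0.15 ± 0.058, adjusted p = 0.247), and their sums overlapped at 3513 to 5702 and 4181 to 5684. Their part in the Hap1 difference was not tested.

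Pallial markers had a median of -0.17 over 7 genes, 1 of them above 0, with Neurod6 at -0.36 ± 0.105 (adjusted p = 0.145 in limma). At an unadjusted p under 0.05 in limma, 0 were higher and 4 lower, or 57.1% beside 15.1% of all genes. None passed after adjustment. Their sums were 7161 to 9387 in wild type and 7420 to 8111 in homozygous embryos. The 4 erythroid genes were all below 0, with a median of -0.33, Hbb at -0.49 ± 0.147 (adjusted p = 0.155) and sums of 1953 to 3671 and 1726 to 2028. Of them 2 were lower at an unadjusted p under 0.05 in limma (50%, beside 15.1% of all genes). Among 8 endothelial genes Cdh5 stood at 0.15 ± 0.033, the groups apart (adjusted p = 0.0641), yet the sums overlapped at 3860 to 4737 and 3939 to 4606. Choroid plexus markers summed to 789 to 836 and 766 to 880 over 7 genes, all with means below the array medians (Ttr at 0.17 ± 0.058, adjusted p = 0.206). Microglial markers summed to 1636 to 1994 and 1619 to 1900 over 8 genes (C1qa at 0.06 ± 0.039, adjusted p = 0.494), and meningeal markers to 1013 to 1120 and 1045 to 1152 over 6 genes (Col1a1 at 0.11 ± 0.063, adjusted p = 0.431). Their part in the differences of Htt and its partners was not tested.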

How the data were processed

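The authors deposited 1 log2 intensity per probe set and array; the submitters' processing notes name RMA and Partek 6.4, without order or settings. Such normalization, and short probes, can compress differences. Groups came from the labels. Of 29214 probe sets, 15310 had 1 gene symbol in the platform annotation, 323 several and 13581 none; the brightest represented a gene, and none was filtered. All probe sets were fitted with limma 3.58.1 in R 4.3.3 (genotype only, eBayes with an intensity trend, 2-sided), with Benjamini-Hochberg adjustment over all and a threshold of 0.05, after a test on simulated data. Single values and relations were tested by exact permutation. The number of arrays limits the precision.

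The genes and lists were chosen with earlier results of these data known. Named were the 7 genes, per related list 2 genes with the smallest p, per marker list 1, any that passed, and 3 nearest profiles. Promoters came from RefSeq, where a window was found for each of the 8 genes except Pacsin1. Array deviations correlated between same-numbered embryos at -0.0817 to 0.256, so the numbers were not taken as pairs.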

Additional observations from a re-analysis of the deposited data

How the results depend on the processing

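The 7 differences were recomputed in 11 other settings and with each of 12 arrays left out; cyclic loess and leaving out wild type 1 and 2 together were chosen after seeing the data. Htt kept its direction in all of them, at 0.25 to 0.30 (log2) in the 11 and 0.26 to 0.32 with 1 array left out. It did not pass with the replicate number as a block (0.30, adjusted p = 0.130 in limma), with each array centred (0.26), with no trend in the variance (0.30) or without variance moderation (0.30); except with centring the difference is the same by construction. The block lowered the number of probe sets called from 124 to 18, and 2 of 6 wild-type arrays correlated best with their own number. Hap1 stayed above 0, at 0.13 to 0.18 in the 11, and passed with only probe sets of 1 gene symbol (0.18). The sign turned for Hip1r with centring (-0.00381), quantile normalization (-0.00922), cyclic loess (-0.0104) and without wild type 1 and 2 (-0.00361), for Zdhhc17 with centring (-0.0217) and without wild type 1 and 2 (-0.0155), and for Setd2 with centring (-0.0325) and array weights (-0.000417). With 1 array left out Setd2 ranged from -0.0179 to 0.0209 and Sh3gl3 from -0.0463 to 0.00051. Pacsin1 kept its sign and did not pass in any. Of the 104 genes in related lists, 1 passed with centring (Gpm6a), 2 with array weights (Gpm6a and Dctn2), 1 without wild type 1 and 2 (Dctn2), and 0 in the other 8 settings and with any 1 array left out. Of all 29214 probe sets, 124 were called as first fitted, 302 with centring and 414 with array weights. Without wild type 1 and 2, 582 were called. With 1 array left out the number ranged from 4 to 200, and it was 3 without an intensity trend.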

Other observations

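Genes around Hap1 on rat chromosome 10 were read in the same way. Of the 4 nearest measured genes on each side, 6 of 8 were above 0 as deposited, beside 61.4% of all genes. None passed in limma (lowest adjusted p = 0.520). The 8 ranged from -0.07 for Jup, the plakoglobin gene, to 0.16 for the keratin gene Krt16, whose SE was 0.116. After centring Gast (-0.00553) and Nt5c3b (-0.00884) fell below 0. Krt16, Krt17, Krt42 and Gast had group medians below the array medians and so are dim.

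In no group of 6 did the gap of a single embryo from the rest reach Dixon's critical value for 6 samples in any of the 7 genes. The widest gap, that of wild type 6 in Zdhhc17, took 0.581 of the group's range. Wild type 6 read 10.31 (log2) in this gene and the other wild types 10.10 to 10.19. Without wild type 6 the Zdhhc17 difference was 0.043 in place of 0.016. With 6 samples a gap under the critical value does not show that no embryo stood apart.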
